A study of Mus musculus with 8 samples.

Results

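Syndecans and glypicans are the cell-surface proteins that carry heparan sulfate, and 9 of their genes were followed here in fibro-adipogenic progenitors (FAPs) of injured mouse muscle. They were chosen by gene symbol, as 9 of the 55276 symbols kept from the expression tables: the syndecans Sdc1, Sdc2, Sdc3 and Sdc4, and the glypicans Gpc1, Gpc2, Gpc3, Gpc4 and Gpc6. The study asked how FAPs respond to muscle injury when the transcription factor Osr1 is lost. RNA from sorted GFP+ FAPs was sequenced 3 and 7 days post injury (dpi), in 2 libraries for each genotype and day, which makes 8. A library held the cells of 1 mouse at 3 dpi, and those of 4 mice combined at 7 dpi.

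Control mice carried the genotype Osr1 flox/+ CAGG Cre+, and knockout mice, called Osr1cKO, the genotype Osr1 flox/flox CAGG Cre+. Both therefore had the tamoxifen-inducible CAGG Cre, which acts in all cell types, and both had at least 1 Osr1 allele that could recombine to GFP, the marker used for the sort. Control FAPs are thus heterozygous cells, not wild type. Mice of 4 to 6 months received tamoxifen on the day of injury and on the following days, and the tibialis anterior was injured by piercing it with a frozen needle. The sample labels name the tibialis anterior as the source, while the design text speaks of hindlimb muscle.

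Syndecans span the plasma membrane, and their short cytoplasmic tails bind PDZ proteins such as syntenin, the product of Sdcbp. Glypicans are held to the outer leaflet by a glycosylphosphatidylinositol anchor and have no cytoplasmic part. On both families, heparan sulfate chains bind FGFs, Wnts, BMPs, chemokines and matrix proteins, and so present growth factors to their receptors or hold them back. In muscle, Sdc3 and Sdc4 are known as surface markers of muscle stem cells, Sdc1 as a marker of plasma cells and epithelia, and Gpc3 as a regulator of body size through Hedgehog and Wnt signalling. Values are TPM, a transcript level corrected for gene length and library depth, so levels of different genes can be compared.

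The bases upstream of the start site were read for the 3 syndecans that were lower at 7 dpi in control FAPs and for Gpc3, the glypican with the largest rise on the log2(TPM + 1) scale, because these genes moved with the day. The RefSeq promoter table (GRCm38.p6) held 6 of the 9 genes. Sdc2, Gpc1 and Gpc6 had no entry, and the Gpc2 and Gpc4 windows are not shown. Position 1 upstream of the RefSeq start is written as -1. Capitals mark the GC box, GGGCGG, on either strand. The Sdc1 stretch, chr12:8771146-8771322 on the plus strand, stops at -74, where an annotated exon begins. The Sdc3 stretch is chr4:130792287-130792536 on the plus strand. The Sdc4 stretch, chr2:164443189-164443438 on the minus strand, lies inside the gene as GENCODE draws it, upstream of the RefSeq start and outside every annotated exon. The Gpc3 stretch is chrX:52613975-52614224 on the minus strand.
Sdc1: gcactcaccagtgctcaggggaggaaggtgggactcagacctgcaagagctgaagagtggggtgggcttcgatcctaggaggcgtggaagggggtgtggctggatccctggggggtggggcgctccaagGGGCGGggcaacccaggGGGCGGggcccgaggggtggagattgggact
Sdc3: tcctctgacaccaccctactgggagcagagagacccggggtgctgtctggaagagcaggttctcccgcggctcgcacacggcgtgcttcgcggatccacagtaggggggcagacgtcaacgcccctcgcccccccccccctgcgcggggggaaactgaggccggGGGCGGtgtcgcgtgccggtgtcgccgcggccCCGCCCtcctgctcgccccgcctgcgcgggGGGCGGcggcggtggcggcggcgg
Sdc4: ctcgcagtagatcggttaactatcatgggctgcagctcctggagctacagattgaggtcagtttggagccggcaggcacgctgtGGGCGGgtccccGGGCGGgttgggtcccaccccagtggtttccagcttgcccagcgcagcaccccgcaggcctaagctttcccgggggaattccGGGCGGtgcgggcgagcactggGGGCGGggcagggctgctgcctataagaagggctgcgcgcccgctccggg
Gpc3: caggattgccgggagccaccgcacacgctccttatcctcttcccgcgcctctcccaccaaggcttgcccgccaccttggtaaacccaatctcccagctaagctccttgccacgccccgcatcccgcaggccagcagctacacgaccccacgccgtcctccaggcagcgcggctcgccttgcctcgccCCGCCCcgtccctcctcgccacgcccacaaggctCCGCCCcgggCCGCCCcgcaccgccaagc

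Over the full 250 upstream bases, Sdc1, Sdc3 and Gpc3 each held 3 GC boxes and Sdc4 held 4. The Gpc2 and Gpc4 windows held the GC box as well, so all 6 windows did and it does not set the 4 printed genes apart. The GC box stood in 32.7% of the 32851 promoters of the table over the same length. All 6 promoters were rich in G and C, from 66% in Sdc1 to 76.4% in Sdc3, against a median of 52.4% over the table. Searched on both strands, TGACGTCA (CRE) and the core promoter letters TATAAA matched none of the 6 windows, and 1.55% and 12.4% of all promoters. GGAATG (TEAD) matched Gpc4 alone, as it did 12.6% of all promoters. The Gpc4 window lies inside the gene as GENCODE draws it and begins in an annotated exon. GCTACNGT, taken as the Odd-skipped motif, matched Gpc2 alone, as it did 1.80% of all promoters. The Gpc2 match, at -28 to -21, lies past -69, the last base before an annotated exon. CANNTG (E-box) matched Sdc1 at -34 to -29 and Gpc2 at -46 to -41, both past the start of an annotated exon, and 66.2% of all promoters. These are matches of letters and not binding sites.

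Osr1 itself was checked first. Its level was 105 and 91.0 TPM in the control libraries at 3 dpi against 70.7 and 71.9 TPM in Osr1cKO, and 67.6 and 71.6 against 64.4 and 60.8 TPM at 7 dpi. The groups did not overlap at either day, and Osr1 fell at 3 dpi by the rule given below. Its log2 fold change was -0.45 (SE 0.13) at 3 dpi and -0.28 (SE 0.08) at 7 dpi, with limma adjusted p of 0.772 and 0.320. The tables give 1 value per gene over all its exons, so the deleted part of Osr1 was not read separately. The paper reports strongly reduced reads over the deleted exon and the one after it in these RNA-seq data. It also reports lower Osr1 mRNA by RT-qPCR in FAPs of Osr1cKO mice at 3 dpi. Sdc1 lies on the same chromosome as Osr1, with 776 kilobases between them.

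Sex-linked transcripts set the 7 dpi libraries apart. Xist, expressed from the inactive X of female cells, was at 33.9 to 52.9 TPM in the 4 libraries at 3 dpi, at 12.4 and 0.0252 TPM in control at 7 dpi, and at 110 and 103 TPM in Osr1cKO at 7 dpi. Ddx3y, a Y-linked gene, was listed at 0 in all 4 libraries at 3 dpi, at 47.5 and 48.6 TPM in control at 7 dpi, and at 10.5 and 2.22 TPM in Osr1cKO at 7 dpi. Genotype at 7 dpi, day within each genotype and the interaction of genotype and day therefore cannot be told apart from the sex of the mice. Day also cannot be told apart from the number of mice per library, and the study names 2 instruments without saying which libraries each read.

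The libraries held 36516530 to 51096356 recovered fragments. All 8 FAP markers averaged over 1 TPM in every group, with summed levels of 24029 to 42523 TPM. Col1a1 alone gave 12404 to 28084 TPM of these. Pdgfra, a defining FAP marker, lay between 197 and 365 TPM. Ly6a, which encodes Sca-1, was at 5407 and 4232 TPM in control and at 3058 and 2020 TPM in Osr1cKO at 3 dpi. Its log2 fold change was -0.95 (limma adjusted p = 0.781) and passed the rule given below. In Osr1cKO at 3 dpi 3 of the 8 FAP markers were higher and 5 lower. Of the 8 macrophage markers, 3 averaged over 1 TPM at 3 dpi and 4 or 5 at 7 dpi, with sums of 11.3 to 20.4 and then 42.7 to 65.3 TPM. Muscle stem cell sums were 6.09 to 8.35 TPM at 3 dpi and 12.0 to 31.6 TPM at 7 dpi, with Myf5 and Myod1 at 0 in control and Pax7 at 0 in Osr1cKO at 3 dpi. Endothelial sums moved from 17.2 to 44.4 up to 47.2 to 72.0 TPM, mural sums from 35.1 to 59.9 up to 63.3 to 138 TPM, and Schwann cell sums from 2.48 to 6.99 up to 10.8 to 22.4 TPM. Myofiber sums were 8.36 to 14.2 TPM and then 42.2 to 71.3 TPM, erythroid sums 0 to 1.47 and then 11.7 to 54.0 TPM. Lymphoid, plasma cell and epithelial sums stayed at or under 14.5, 2.81 and 0.959 TPM. Tenocyte genes summed to 578 to 815 TPM in control and 1599 to 1830 TPM in Osr1cKO at 3 dpi, and to 2391 to 2628 and 3138 to 3545 TPM at 7 dpi. Proliferation genes summed to 491 to 665 TPM at 3 dpi and 136 to 195 TPM at 7 dpi. Between genotypes at 3 dpi, endothelial sums were 21.4 to 44.4 TPM in control and 17.2 to 18.0 TPM in Osr1cKO. Tek alone gave 14.9 to 25.4 TPM of the endothelial sums at 3 dpi and 36.3 to 58.4 TPM at 7 dpi. Kdr was at 16.8 TPM in control replicate 1 of 3 dpi and at 2.25 TPM in replicate 2. The part of these lists in the results on syndecans and glypicans was not tested.

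All 9 genes gave fragments in all 8 libraries, and 8 of them were at 12.5 TPM or more in each library. Syndecans made up the larger pool, with a sum of 1080 ± 127 TPM (SD, n = 2) in control at 3 dpi against 308 ± 26.1 TPM for glypicans. By 7 dpi the control syndecan sum was 580 ± 43.4 TPM and the glypican sum 362 ± 6.34 TPM. In Osr1cKO the syndecan sum was 867 ± 34.6 TPM at 3 dpi and 718 ± 29.0 TPM at 7 dpi, and the glypican sum 342 ± 29.9 and 450 ± 22.0 TPM. Syndecan transcripts were 2.45 to 4.03 times the glypican transcripts within each library at 3 dpi, and 1.5 to 1.7 times at 7 dpi, with no overlap between the days.

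**Figure D1:**
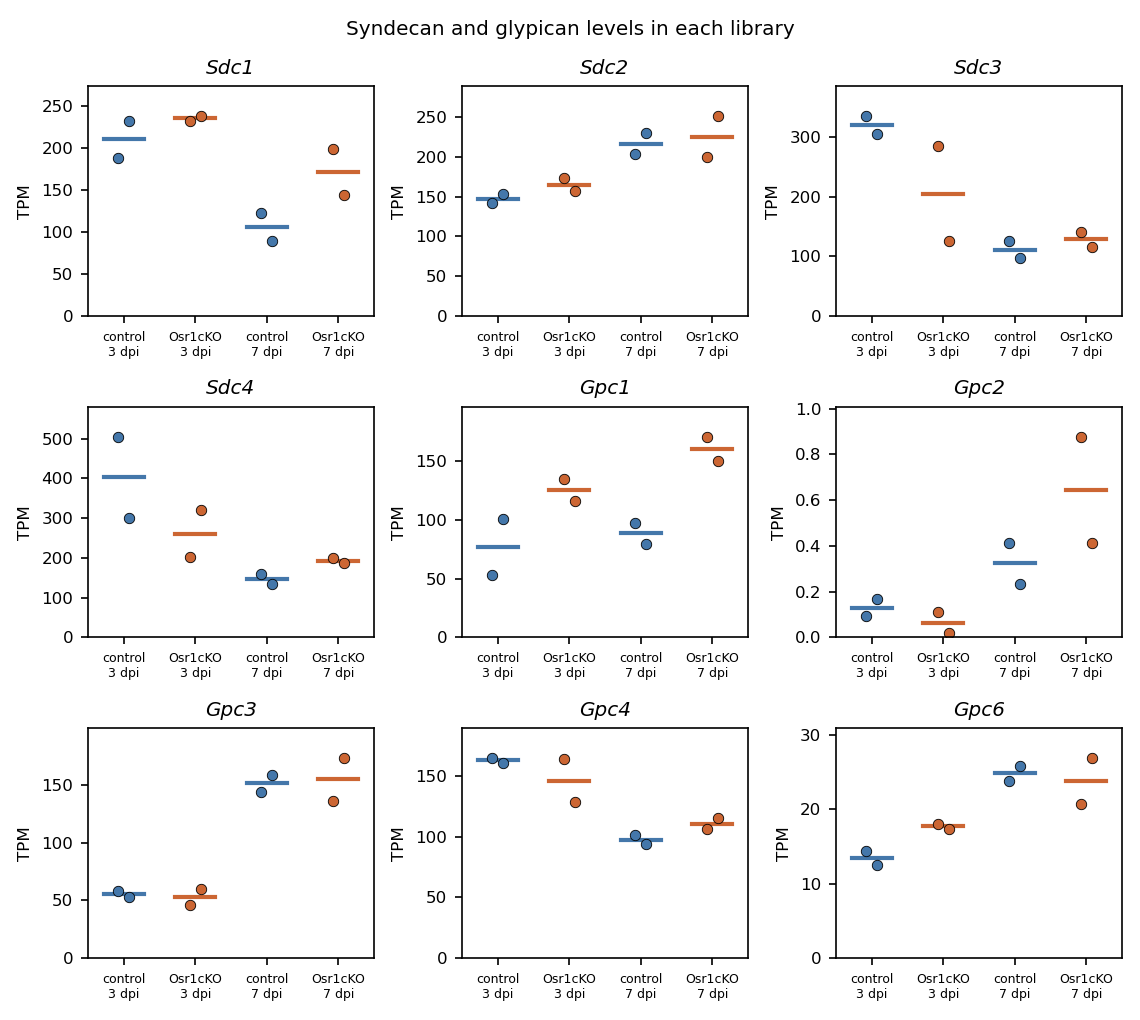
Level of each gene in TPM (vertical axes, each from 0) in the 8 libraries, with circles for libraries, bars for group means, blue for control and orange for Osr1cKO. Gpc3 lay at 46.5 to 60.1 TPM at 3 dpi and at 136 to 173 TPM at 7 dpi, and Gpc1 was higher in both Osr1cKO libraries than in both control libraries at each day.

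The order of the levels changed with the day. In control at 3 dpi Sdc4 led with a mean of 402 TPM, followed by Sdc3 at 319 TPM, and the libraries of these neighbours overlapped. Sdc1, Gpc4, Sdc2 and Gpc1 followed at 211, 163, 148 and 76.6 TPM, each apart from the one before it. Gpc3 at 55.5 TPM overlapped Gpc1, and Gpc6 and Gpc2 stood below them at 13.5 and 0.130 TPM. In control at 7 dpi Sdc2 led at 216 TPM, apart from Gpc3 at 151 TPM, which overlapped Sdc4 at 146 TPM. Sdc3, Sdc1, Gpc4 and Gpc1 then ran from 112 to 88.3 TPM, each overlapping its neighbour, above Gpc6 at 24.8 TPM and Gpc2 at 0.323 TPM.

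In Osr1cKO the levels ran closer together. At 3 dpi the 6 leading genes, Sdc4, Sdc1, Sdc3, Sdc2, Gpc4 and Gpc1, lay between 261 and 125 TPM, and each overlapped the next. At 7 dpi Sdc2, Sdc4, Sdc1, Gpc1, Gpc3 and Sdc3 lay between 225 and 129 TPM, again each overlapping the next, with Gpc4 just below at 111 TPM. Gpc6 and Gpc2 were the lowest at both days, at 17.7 and 0.0644 TPM and then at 23.8 and 0.645 TPM.

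Within the glypicans, Gpc4 gave 53.0 ± 5.33% of the summed transcripts in control at 3 dpi and 26.9 ± 0.977% at 7 dpi (SD, n = 2). Gpc3 gave 18.1 ± 2.72% and 41.8 ± 3.63%. In Osr1cKO the Gpc4 share was 42.4 ± 3.71% and then 24.6 ± 0.237%, and the Gpc3 share 15.7 ± 4.19% and 34.3 ± 4.11%. Gpc1 held a larger share in Osr1cKO, 36.6 ± 0.764% and 35.7 ± 4.99%, than in control, 24.5 ± 8.87% and 24.4 ± 3.13%. Within the syndecans, Sdc4 and Sdc3 gave 36.7 ± 9.0% and 29.7 ± 1.52% in control at 3 dpi, and Sdc2 gave 37.5 ± 6.01% at 7 dpi.

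**Figure D2:**
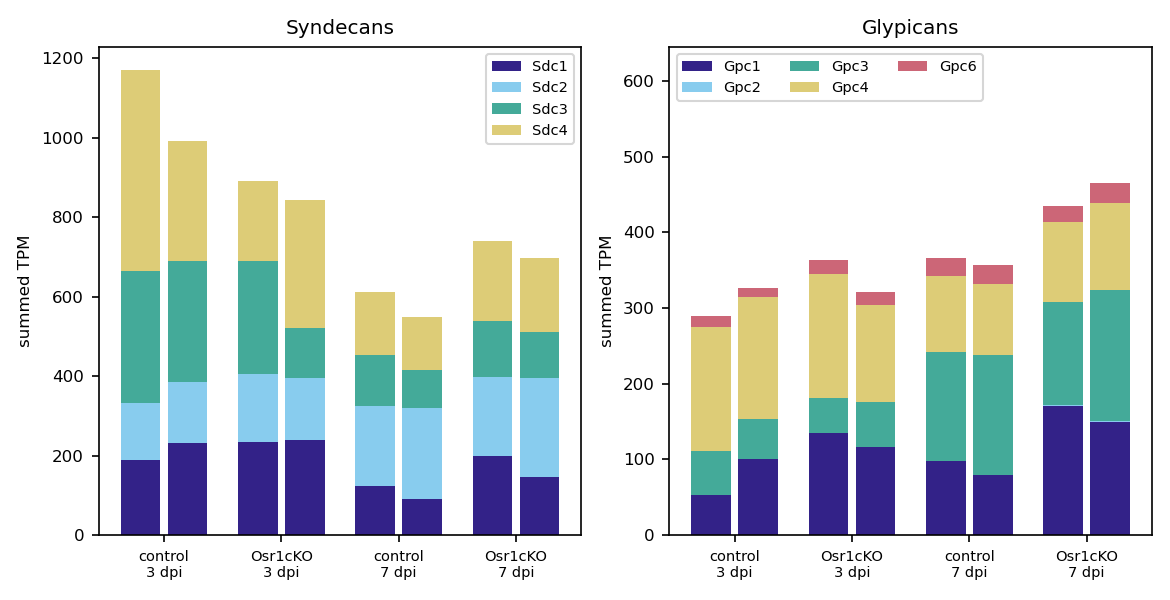
Summed TPM of the 4 syndecans (left) and the 5 glypicans (right) in each of the 8 libraries, stacked by gene, with the 2 libraries of a group side by side and both axes starting at 0. The control syndecan bars fall from a mean of 1080 TPM at 3 dpi to 580 TPM at 7 dpi, and in control Gpc3 takes over from Gpc4 as the largest part of the glypican bars. In Osr1cKO at 7 dpi Gpc1 and Gpc3 hold mean shares of 35.7% and 34.3%.

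The first comparison, between genotypes at 3 dpi, asks what loss of Osr1 changes in activated FAPs. No member passed the rule the study set for this day, namely 1.2-fold or more at an unadjusted p below 0.05, which 6.27% of the 15699 tested genes passed. Of the 9 genes 8 were tested, since Gpc2 had 1 to 9 fragments per library at this day. With adjusted p under 0.1, 0% of the table passed. The largest differences were in Gpc1, Sdc3 and Sdc4.

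Gpc1, a widely expressed glypican whose chains bind FGFs, was at 52.7 and 100.4 TPM in control and at 135 and 116 TPM in Osr1cKO. Both Osr1cKO libraries lay above both control libraries, and the lower control library stood well apart from the other three. The difference was 0.77 on the log2 scale (SE 0.32, limma adjusted p = 0.802). Leaving out control replicate 1 gave 0.30, and leaving out control replicate 2 gave 1.23, which passed the rule. With all 8 libraries in 1 fit it was 0.80 and passed as well.

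Sdc3, a syndecan with a large ectodomain first known from neural tissue, was at 334 and 304 TPM in control and at 284 and 125 TPM in Osr1cKO. The groups did not overlap, but the 2 Osr1cKO libraries were further apart than the genotypes. On the log2 scale the difference was -0.76 (SE 0.40) with limma adjusted p = 0.831. Without Osr1cKO replicate 2 it was -0.15, and without Osr1cKO replicate 1 it was -1.37 and passed the rule. Exons of Sdc3 overlap those of Gm12970 and Gm26716 on the other strand over 463 bases. Gm12970 was listed at 0 TPM in every library and Gm26716 at 0 to 1.75 TPM. Whether the counting used strand is not given in the sources used here.

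Sdc4, the syndecan of focal adhesions, was at 504 and 301 TPM in control and at 201 and 321 TPM in Osr1cKO, and these groups overlapped. Sdc4 differed by -0.61 on the log2 scale (SE 0.33) with limma adjusted p = 0.831. It passed the rule without control replicate 2 at -0.98 and without Osr1cKO replicate 2 at -0.93, and was -0.26 and -0.30 without either of the other libraries.

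Sdc1, which binds growth factors and matrix through both heparan and chondroitin sulfate, was at 189 and 232 TPM in control and at 233 and 239 TPM in Osr1cKO. Sdc2, the syndecan most typical of fibroblasts, was at 142 and 153 TPM in control and at 173 and 157 TPM in Osr1cKO. Gpc6, known from its role in skeletal growth, was at 14.5 and 12.5 TPM in control and at 18.1 and 17.3 TPM in Osr1cKO. These 3 genes had both Osr1cKO libraries above both controls, with log2 fold changes of 0.17 (SE 0.15), 0.16 (SE 0.13) and 0.37 (SE 0.16). None passed the rule, with limma adjusted p of 0.886 for Sdc1, 0.874 for Sdc2 and 0.815 for Gpc6. Gpc6 passed it without the filter on low values, with limma-voom and with all 8 libraries in 1 fit.

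Gpc3 and Gpc4, which lie next to each other on the X chromosome, overlapped between genotypes at 3 dpi. Gpc3 was at 58.1 and 52.9 TPM in control and at 46.5 and 60.1 TPM in Osr1cKO. Gpc4 was at 164 and 161 TPM in control and at 164 and 128 TPM in Osr1cKO. Their log2 fold changes were -0.07 (95% interval -0.47 to 0.33) and -0.17 (95% interval -0.60 to 0.27), and each changed sign when 1 Osr1cKO library was left out. In all, 4 tested members were higher in both Osr1cKO libraries and 1 was lower, where 18.2% and 18% of all tested genes were.

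The same comparison at 7 dpi asks whether a difference is present later in repair. No member passed 1.2-fold with adjusted p under 0.1, which 0.0664% of 16578 tested genes passed. The paper used DESeq2 at these thresholds and reports many more differing genes at this day than the limma fit used here. At an unadjusted p under 0.05, Gpc1 and Sdc1 passed, both higher in Osr1cKO, where 5.21% of all tested genes passed in that direction. The scaling of the libraries moved all differences at this day by -0.13 on the log2 scale relative to the TPM as listed, and the fold changes below are relative to that shift. Several marker sums, taken from the TPM as listed, did not overlap between genotypes at 7 dpi. Proliferation sums were 136 to 155 TPM in control and 173 to 195 TPM in Osr1cKO, and myofiber sums 61.8 to 71.3 against 42.2 to 42.6 TPM. Schwann cell sums were 10.8 to 11.6 against 14.2 to 22.4 TPM, macrophage sums 42.7 to 46.5 against 47.7 to 65.3 TPM, and lymphoid sums 11.5 to 14.5 against 7.19 to 7.82 TPM, beside the tenocyte sums above. With the library scaling applied, the macrophage sums overlapped between genotypes. The part of all these lists in the differences below was not tested.

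Gpc1 was at 97.4 and 79.2 TPM in control and at 170 and 150 TPM in Osr1cKO at 7 dpi. Both Osr1cKO libraries were above both controls, with a gap wider than the spread within either group. It differed by 0.72 on the log2 scale (SE 0.14, 95% interval 0.38 to 1.07), with limma adjusted p = 0.232. Gpc1 ranked at 174 of all tested genes by p. It passed the adjusted threshold with limma-voom, with the replicate number as a block and without control replicate 1. The 3 other single-library omissions gave 0.57, 0.60 and 0.85. Ankmy1, whose exons overlap those of Gpc1 by 977 bases on the other strand, was at 0.0643 to 0.340 TPM.

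Sdc1 was at 123 and 89.8 TPM in control and at 199 and 145 TPM in Osr1cKO at 7 dpi, again without overlap. Its log2 fold change was 0.56 (SE 0.22, 95% interval 0.01 to 1.11), with limma adjusted p = 0.393. Leaving out Osr1cKO replicate 1 gave 0.30, and leaving out replicate 2 gave 0.81. Plasma cell markers, which mark the blood cells richest in Sdc1, summed to at most 2.81 TPM. The light chain gene Igkc was listed at 0 in all 8 libraries. The part of plasma cells in the Sdc1 levels was not tested. Sdc4 was at 159 and 133 TPM in control and at 200 and 186 TPM in Osr1cKO, without overlap, with a log2 fold change of 0.27 (SE 0.12) and limma adjusted p = 0.418. These 3 members were the ones higher in both Osr1cKO libraries after scaling, as were 23% of all tested genes.

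The other members were close between genotypes at 7 dpi. Sdc2 was at 203 and 229 TPM in control and at 199 and 251 TPM in Osr1cKO, and Sdc3 at 126 and 97.2 TPM against 142 and 116 TPM. Gpc3 was at 144 and 159 TPM against 136 and 173 TPM, and Gpc4 at 101 and 93.6 TPM against 106 and 115 TPM. Gpc6 was at 23.8 and 25.8 TPM against 20.7 and 26.9 TPM. After scaling the libraries of these 5 genes overlapped between genotypes. Their log2 fold changes ran from -0.20 in Gpc6 to 0.08 in Sdc3, with 95% intervals that spanned at most -0.52 to 0.51. The Sdc2 and Gpc3 differences, -0.08 and -0.11, changed sign without scaling, to 0.05 and 0.02.

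Gpc2, a glypican of developing neurons, was near the detection limit. It had 19 and 11 fragments in control and 36 and 17 in Osr1cKO at 7 dpi, or 0.412 and 0.233 against 0.876 and 0.414 TPM. Its difference was 0.26 on the log2 scale of TPM + 1, which understates the ratio of such low values, with limma adjusted p = 0.589. Exons of Gpc2 share 2376 bases with Gm43720 on the same strand, which was listed at 0 TPM in every library.

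**Figure D3:**
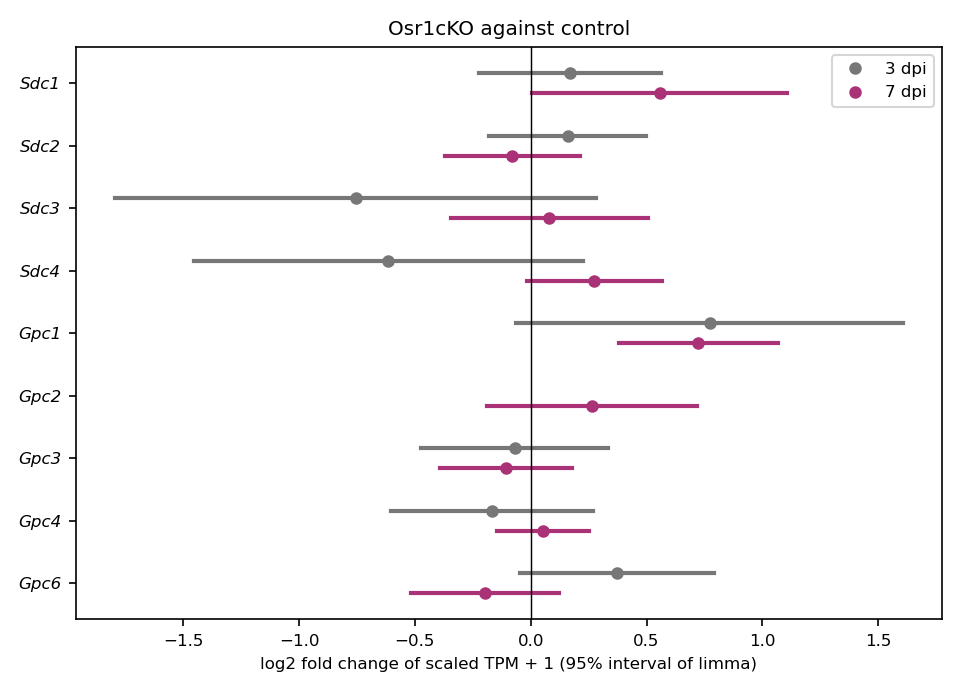
Log2 fold change of scaled TPM + 1 in Osr1cKO against control (horizontal axis) for each gene, at 3 dpi in grey and at 7 dpi in purple, with the 95% interval of limma as a line. The Gpc1 point is near 0.77 at 3 dpi and 0.72 at 7 dpi, and at 7 dpi its interval of 0.38 to 1.07 stands clear of 0. Gpc2 was not tested at 3 dpi.

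The day comparison asks how the heparan sulfate carriers differ between early and later FAPs. In control FAPs 7 of 9 members passed 1.2-fold with adjusted p under 0.1, with 3 higher and 4 lower at 7 dpi. Of the 17371 genes tested, 54.4% passed, 26.5% higher and 27.9% lower. In Osr1cKO 6 members passed, 4 higher and 2 lower, against 50% of all genes, 23.9% higher and 26.2% lower. One of the 4 was Gpc2, which cleared the filter only through the 7 dpi libraries, and 5 members passed without it. Calls were thus common in the whole table, and counts over 9 genes do not set the members apart from it. In RNA from sorted populations, fewer cells of one kind and less RNA per cell cannot be told apart.

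Among the 8 members above the detection limit, Gpc3 had the largest rise in each genotype. It was at 58.1 and 52.9 TPM in control at 3 dpi and at 144 and 159 TPM at 7 dpi, and in Osr1cKO at 46.5 and 60.1 and then 136 and 173 TPM. All 4 libraries at 7 dpi were above all 4 at 3 dpi. Its log2 fold change was 1.51 (SE 0.14, limma adjusted p = 0.000451) in control and 1.46 (SE 0.14, limma adjusted p = 0.000796) in Osr1cKO. Leaving out any one library gave 1.46 to 1.56 in control and 1.28 to 1.62 in Osr1cKO. Gpc3 is X-linked. The difference was 1.51 in control, where Xist was at 52.9 and 33.9 TPM and then at 12.4 and 0.0252 TPM, and 1.46 in Osr1cKO, where Xist was at 46.3 and 40.9 TPM and then at 110 and 103 TPM.

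Gpc4, its neighbour on the same strand with 107 kilobases between them, fell. It went from 164 and 161 TPM to 101 and 93.6 TPM in control and from 164 and 128 TPM to 106 and 115 TPM in Osr1cKO. Gpc4 differed by -0.66 (SE 0.14, limma adjusted p = 0.00714) in control and -0.45 (SE 0.14, limma adjusted p = 0.0342) in Osr1cKO. The Osr1cKO call was lost without replicate 1 of 3 dpi (-0.27) and without either 7 dpi library (-0.41 and -0.47). Gpc4 is a glypican known for FGF and Wnt co-receptor activity. The ratio of Gpc3 to Gpc4 within a library was 0.284 to 0.470 at 3 dpi and 1.28 to 1.69 at 7 dpi, in the 4 libraries of each day.

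Gpc6 rose in control and passed narrowly in Osr1cKO. It went from 14.5 and 12.5 TPM to 23.8 and 25.8 TPM in control and from 18.1 and 17.3 TPM to 20.7 and 26.9 TPM in Osr1cKO. On the log2 scale it differed by 0.91 (SE 0.14, limma adjusted p = 0.00199) in control and 0.33 (SE 0.14, limma adjusted p = 0.0890) in Osr1cKO. The Osr1cKO call was lost without the filter on low values, with the replicate block and in 5 of the single-library omissions, with 0.19 without Osr1cKO replicate 2 of 7 dpi. Gpc1 passed in neither genotype, at 0.35 (SE 0.30) in control and 0.29 (SE 0.30) in Osr1cKO, and without control replicate 1 of 3 dpi its control difference was -0.16. Gpc2 passed in Osr1cKO only, at 0.60 (SE 0.16, limma adjusted p = 0.0231), but it cleared the filter only through the 7 dpi libraries, so its pass is no test of the day. Its fragments numbered 6 and 1 at 3 dpi and 36 and 17 at 7 dpi there, and 5 and 9 then 19 and 11 in control.

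Among the syndecans, Sdc2 rose in both genotypes while the other 3 were lower at 7 dpi. Sdc2 went from 142 and 153 TPM to 203 and 229 TPM in control, a log2 fold change of 0.62 (SE 0.13, limma adjusted p = 0.00786). In Osr1cKO it went from 173 and 157 TPM to 199 and 251 TPM, a difference of 0.37 (SE 0.13, limma adjusted p = 0.0570). That call was lost without the filter, without Osr1cKO replicate 2 of 3 dpi (0.28) and without Osr1cKO replicate 2 of 7 dpi (0.25). All 4 libraries at 7 dpi exceeded all 4 at 3 dpi.

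Sdc4 fell in control from 504 and 301 TPM to 159 and 133 TPM, a log2 fold change of -1.34 (SE 0.28, limma adjusted p = 0.00724). Sdc3 fell in control from 334 and 304 TPM to 126 and 97.2 TPM, a difference of -1.44 (SE 0.36, limma adjusted p = 0.0150). Sdc1 fell in control from 189 and 232 TPM to 123 and 89.8 TPM, a difference of -0.91 (SE 0.23, limma adjusted p = 0.0151). The muscle stem cell markers summed to at most 31.6 TPM in a library, and the part of such cells in the Sdc4 and Sdc3 levels was not tested.

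In Osr1cKO the same 3 syndecans differed less by day. Sdc1 passed at -0.54 (SE 0.23, limma adjusted p = 0.0971), a call lost in several alternatives, with -0.27 without Osr1cKO replicate 2 of 7 dpi. Sdc3 was at -0.62 (SE 0.36, limma adjusted p = 0.203) with overlapping libraries, since its second Osr1cKO library was already at 125 TPM at 3 dpi, and without that library the difference was -1.23 and passed. Sdc4 was at -0.46 (SE 0.28, limma adjusted p = 0.216), with both 7 dpi libraries just below both 3 dpi libraries, and passed at -0.79 without Osr1cKO replicate 1 of 3 dpi.

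**Figure D4:**
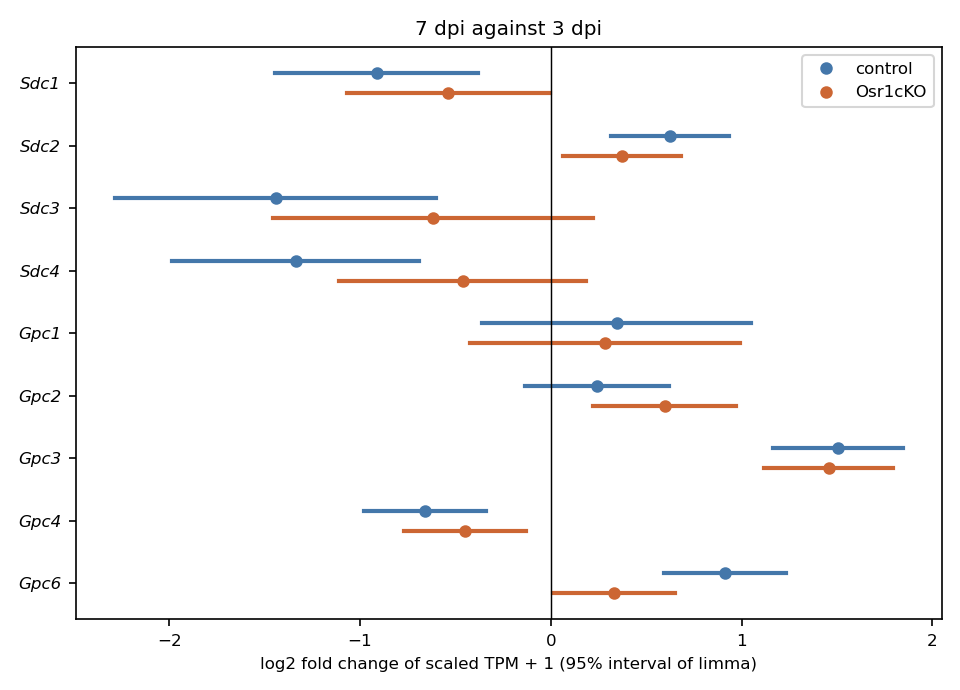
Log2 fold change of scaled TPM + 1 at 7 dpi against 3 dpi (horizontal axis) for each gene, in control (blue) and Osr1cKO (orange), with the 95% interval of limma as a line. Gpc3 sits near 1.5 in both genotypes, while Sdc3 and Sdc4 are at -1.44 and -1.34 in control and at -0.62 and -0.46 in Osr1cKO with wide intervals.

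Whether the day difference depended on genotype was tested with an interaction term over all 8 libraries. No member passed at adjusted p under 0.1, as 0% of the table did, and 6.78% of all genes had an unadjusted p under 0.05 with a fold over 1.2. Gpc6 was the 1 member in that set, with an interaction of -0.58 (SE 0.19, limma adjusted p = 0.671). For Sdc4 and Sdc3 the interaction was 0.88 (SE 0.39) and 0.82 (SE 0.50), with limma adjusted p of 0.745 and 0.859. For Gpc3 it was -0.05, with a 95% interval of -0.53 to 0.43. The smaller day differences of the syndecans in Osr1cKO are thus not shown to differ from those in control.

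The other genes of the heparan sulfate pathway were read in 6 lists. Chain initiation and polymerization genes build the linker and extend the chain. In Osr1cKO at 3 dpi 11 of 12 were higher, as were 8059 of all 15699 tested genes, and 1 passed the rule, as 6.27% of all genes did. This was Pxylp1, the xylose phosphatase that lets the linker be completed, at 28.5 ± 4.93 TPM (SD, n = 2) in control and 42.0 ± 4.28 TPM. Its log2 fold change was 0.55 (SE 0.17, limma adjusted p = 0.772). The median of the list was 0.17, against 0.01 over all tested genes. At 7 dpi 8 of 11 were higher, as were 8420 of all 16578 tested genes. None passed, and Pxylp1 was at 0.30 (SE 0.09, limma adjusted p = 0.335).

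With the day, 10 of these 12 genes were lower in control and 11 in Osr1cKO, beside 8484 and 8433 of all 17371 tested genes. By the call rule 4 fell in each genotype, where 27.9% and 26.2% of all tested genes fell. Pxylp1 fell in control (-0.85 on the log2 scale) and in Osr1cKO (-1.11), and so did Fam20b, the xylose kinase (-0.43 and -0.49). Ext2, a subunit of the copolymerase that extends the chain, fell as well (-0.40 and -0.37), from 84.6 to 60.7 TPM in control, while its partner Ext1 was at -0.10 and -0.31 and passed in neither. Extl3 was the fourth that fell (-0.47 and -0.79). Xylt1, a xylosyltransferase that starts the chain, rose by 0.64 in control and was the 1 gene of the list that rose there. The medians were -0.11 in control and -0.29 in Osr1cKO, against 0.02 over all tested genes in each.

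Sulfation and epimerization genes moved both ways. Of 14 tested among 20, 2 passed at 3 dpi, both higher in Osr1cKO, as did 374 of all 15699 tested genes. They were Hs3st1, a 3-O-sulfotransferase, at 0.56 (SE 0.21), and Hs2st1, the 2-O-sulfotransferase, at 0.43 (SE 0.17). The limma adjusted p was 0.784 for each. At 7 dpi none passed, and Hs3st1 was at 4.07 ± 0.514 TPM in control and 7.44 ± 0.830 TPM in Osr1cKO (SD, n = 2), a log2 fold change of 0.63 with limma adjusted p = 0.280. With the day 4 of 14 rose and 3 fell in control, and 4 rose and 4 fell in Osr1cKO. Those counts are near the shares of all genes, 26.5% and 27.9% in control and 23.9% and 26.2% in Osr1cKO. Hs3st1 rose most in both, by 1.16 and 1.22 on the log2 scale. Hs3st3a1 rose by 0.68 and 0.57 and Hs3st3b1 by 0.70 and 0.43. Hs2st1 rose by 0.61 in control and was at 0.16 in Osr1cKO, where it did not pass. Ndst1, the main N-deacetylase, fell in Osr1cKO (-0.34) and was at -0.23 in control, where it did not pass. Slc35b2, which carries the sulfate donor into the Golgi, fell in both genotypes (-0.38 and -0.72).

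Enzymes that edit the chains or shed the proteins outside the cell formed the third list. Hpse, heparanase, was at 52.4 and 40.1 TPM in control and at 29.4 and 23.3 TPM in Osr1cKO, without overlap, a log2 difference of -0.79 that passed the rule (SE 0.20, limma adjusted p = 0.772). Sulf1, which removes 6-O-sulfates, was at 80.6 and 128 TPM in control and at 163 and 153 TPM in Osr1cKO. It passed at 0.63 (SE 0.25, limma adjusted p = 0.784), and at 7 dpi it was at 0.45 (SE 0.10, limma adjusted p = 0.258), with 113 and 99.7 TPM against 163 and 157 TPM. Its relative Sulf2 was at -0.02 and -0.03. Of 9 tested genes at 3 dpi 1 passed in each direction, beside 374 higher and 611 lower of all 15699 tested genes. At 7 dpi none of 10 passed.

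By day, 4 of 10 tested genes of this list passed higher and 2 lower in each genotype, with Hpse2 among the 4 in Osr1cKO, beside the same shares of all genes (26.5% and 27.9%, then 23.9% and 26.2%). Mmp14, a membrane protease that can shed syndecans, rose by 1.29 in control and 1.04 in Osr1cKO, from 444 to 1017 TPM and from 492 to 1054 TPM. Sulf2 rose by 0.78 and 0.76. Adam10, another sheddase, fell (-0.65 and -0.61). Hpse fell as well (-1.21 in control, from 46.3 to 18.3 TPM, and -0.56 in Osr1cKO). Hpse2, which lacks heparanase activity, was at 0.63 in Osr1cKO, with 3 and 1 fragments at 3 dpi and 22 and 34 at 7 dpi. It was too low to be tested between genotypes at 3 dpi and cleared the day filter mainly through the 7 dpi libraries, so its pass is no test of the day.

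Of the 8 lysosomal enzymes that degrade heparan sulfate, none passed between genotypes. Naglu was at -0.26 at 7 dpi, with limma adjusted p = 0.352. With the day 2 of 8 rose and 3 fell in control, and 2 rose and 4 fell in Osr1cKO, beside those shares. Arsg rose by 1.11 and 1.16, while Gusb (-0.62 and -0.72) and Hgsnat (-0.40 and -0.56) fell. Sgsh fell in Osr1cKO (-0.46).

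The 7 partners of the syndecan tail included 4 that fell with the day in each genotype and none that rose, where 27.9% of all tested genes fell in control and 26.2% in Osr1cKO. They were Sdcbp2 (-1.60 in control and -0.75 in Osr1cKO), Gipc1 (-0.74 and -0.84), the Rac activator Tiam1 (-0.72 and -0.94) and Trappc4 (-0.45 and -0.46). Sdcbp, encoding syntenin, was at 91.5 TPM in control at 3 dpi and 99.6 TPM at 7 dpi and passed in no comparison. Sdcbp2, a paralog of Sdcbp, was at 8.95 and 5.97 TPM in control and Osr1cKO at 3 dpi. It was the 1 partner past the rule between genotypes, which 6.27% of all tested genes passed at 3 dpi. Its difference was -0.51 (SE 0.20, limma adjusted p = 0.784). At 7 dpi the smallest p was that of Trappc4, at 0.23 with limma adjusted p = 0.428.

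Among other heparan sulfate proteoglycans, Nrp1, a receptor for semaphorins and VEGF, passed at 3 dpi, at 45.7 to 48.5 TPM in control and 59.1 to 62.4 TPM in Osr1cKO. It differed by 0.36 on the log2 scale (SE 0.12, limma adjusted p = 0.773). It rose by 0.63 with the day in control. Its interaction had the smallest p of the list, at -0.56 with limma adjusted p = 0.509. In the other lists the interactions with the smallest p were Xylt1 (-0.37), Ndst2 (0.57), Hpse (0.65), Sgsh (-0.25) and Sdcbp2 (0.85), with limma adjusted p between 0.659 and 0.892. Col18a1, a basement membrane collagen with heparan sulfate chains, rose by 0.97 and 1.05 with the day. Agrn at 7 dpi was at -0.25 with limma adjusted p = 0.341. Srgn, the proteoglycan of blood cell granules, passed in Osr1cKO at 1.03 with the day, beside macrophage sums of 11.3 to 19.8 TPM at 3 dpi and 47.7 to 65.3 TPM at 7 dpi, whose part in it was not tested. The remaining mouse glypican, Gpc5, had 0 to 5 fragments per library and was not tested.

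**Figure D5:**
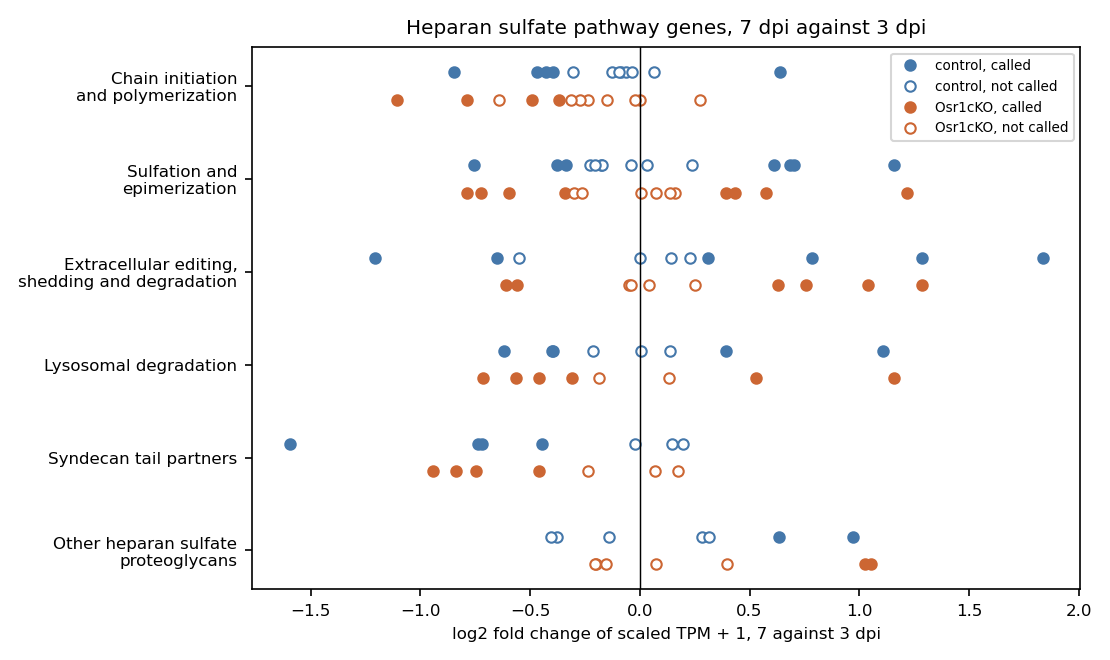
Log2 fold change of scaled TPM + 1 at 7 dpi against 3 dpi (horizontal axis) for every tested gene of the 6 heparan sulfate lists, in control (blue) and Osr1cKO (orange), filled where the fold is over 1.2 with adjusted p under 0.1. Chain initiation genes lie mostly below 0, 10 of 12 in control and 11 of 12 in Osr1cKO, beside 8484 and 8433 of all 17371 tested genes. In each genotype 4 partners of the syndecan tail fall while none rises, where 27.9% and 26.2% of all tested genes fall.

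Genes with a profile like that of a member over the 8 libraries were read from the log2 levels of 10386 genes, for members at a mean of 1 TPM or more whose group means differed over 2-fold. The libraries share day, depth and sex composition, so these are descriptions. Sdc1 was nearest to Rps25, Metap1 and Fblim1, with Pearson r of 0.991, 0.984 and 0.981. Sdc3 was nearest to Psme2, Ogfr and Gnb4, with 0.983, 0.978 and 0.974, and Sdc4 to Slc19a2, Sesn2 and Ankrd17, with 0.990, 0.982 and 0.982. Gpc1 was nearest to Tmem263, Chsy1 and Tspan6, with 0.983, 0.981 and 0.974. Gpc3 was nearest to 4833420G17Rik, Prickle2 and Agtr2, with 0.994, 0.994 and 0.993.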

How the data were processed

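RNA-seq of 8 libraries of sorted FAPs was used. Per the labels, libraries were stranded and poly(A)-selected, and the submitters' processing notes name STAR, DESeq2 and mm10. The authors derived TPM from normalized fragment counts and deposited TPM per gene symbol, summing to 1000000 in each library. The counter, its annotation and its use of strand are not given in the sources used here. Of 55385 entries, 109 repeats of 106 symbols were left out. With exon lengths of GENCODE M21, 98.6% to 98.9% of low values (below 50 fragments) were whole fragments to within 0.02, which gave the depth. Fragment numbers cover counting error only. Library scaling used the mean of log ratios after a 30% trim. Tested were genes reaching 10 fragments in 2 libraries and 15 in total within a fit, and symbols lacking a length at a mean of 1 TPM or more.

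Genotypes were compared within each day on 4 libraries, and days and the interaction over all 8, with limma 3.58.1 (lmFit, eBayes with trend, R 4.3.3) on log2(TPM + 1). The p-values were adjusted by Benjamini-Hochberg over all tested genes. Calls needed a fold change over 1.2, with unadjusted p under 0.05 for genotype at 3 dpi and adjusted p under 0.1 elsewhere. On simulated data more calls were false than the nominal share. Members, lists and tests were chosen with earlier results of these data known. Named genes were the members, Osr1, a few fixed enzymes, and of each list at most 4 that passed per comparison, or the 1 of smallest p. Of the genes this rule names, 1 is not reported here. The profile neighbours were the 3 of highest r. Markers were named where a level mattered. Xist, Ddx3y, Ankmy1, Gpc5, Gm12970, Gm26716 and Gm43720 were added after their values were seen. Replicate numbers did not pair the libraries: deviations of same-numbered libraries correlated at -0.13 at 3 dpi and 0.06 at 7 dpi. Alternatives are given at the end.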

Additional observations from a re-analysis of the deposited data

How the results depend on the processing

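With 2 libraries per group the p-values rest on few residual degrees of freedom, and mice, instrument and sex composition limit the day and 7 dpi comparisons. Of 373 member differences recomputed without leaving out a library, 353 kept their direction and side of the threshold. Of 284 recomputed with 1 library left out, 15 changed direction. For genotype at 3 dpi, where 0 members and 985 genes of the table passed, 1 member passed without the filter on low values (1201 genes), 1 with limma-voom and 2 with all 8 libraries in 1 fit (1802 genes). Replicate numbers that seemed crossed at 3 dpi, used as a block chosen after seeing the data, gave 2 members and 1194 genes, and the numbers as labelled gave 0. Leaving out single libraries gave 0 to 2 members there, with 410 genes without Osr1cKO replicate 2 and 2800 without control replicate 2. At 7 dpi, where 0 members and 11 genes passed, the replicate block gave 1 member (Gpc1) and 27 genes, limma-voom 1 member and 188 genes, and unadjusted p under 0.05 gave 2 members and 1843 genes. No gene passed at 7 dpi with unscaled TPM, without the filter, with a mean TPM of at least 1 or with all 8 libraries in 1 fit. Leaving out single libraries gave 0 to 1 members and 5 to 314 genes. By day, control gave 7 to 8 members when single libraries were left out, and Osr1cKO 2 to 6, with 2 without Osr1cKO replicate 2 of 7 dpi and 3 without Osr1cKO replicate 2 of 3 dpi. In Osr1cKO 3 passed without the filter and 4 with the replicate block. For the interaction 1 member passed at unadjusted p under 0.05, and 0 under every other alternative, although 40 genes passed without the filter and 105 without control replicate 1 of 3 dpi. Without scaling, 4 differences turned positive: Sdc2 (0.0515) and Gpc3 (0.0248) at 7 dpi, and the interactions of Gpc1 (0.0819) and Gpc3 (0.0928). The cause was not tested.

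When single libraries were left out, some small differences changed sign. At 3 dpi Gpc3 ranged from -0.228 to 0.0913 and Gpc4 from -0.366 to 0.0339. At 7 dpi Sdc2 ranged from -0.215 to 0.0543, Sdc3 from -0.115 to 0.271, Gpc3 from -0.247 to 0.0340 and Gpc4 from -0.0102 to 0.114. The Gpc1 day difference in control ranged from -0.157 to 0.832, and the interactions from -0.555 to 0.436 in Gpc1 and from -0.222 to 0.115 in Gpc3. The lone library left in a group is then assumed to vary like the others.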
